A study of Mus musculus with 8 samples.

Results

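Ferroportin and 8 further genes of cellular iron handling were followed on 8 mouse expression arrays. The 9 genes, Slc40a1, Tfrc, Slc11a2, Fth1, Ftl1, Ncoa4, Aco1, Ireb2 and Hmox1, were found through the RefSeq transcript that each probe is annotated to, which gave 14 probes of 55667 on the array and 9 genes of 14390 named genes measured. Slc40a1 was selected on its difference between the iPSC groups on these same arrays, and the other 8 were chosen by their role in iron homeostasis with that result known, so every value of the OSKH against OSK comparison is given below as a description without a test.

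The arrays held total RNA of pluripotent cells of the C57BL/6J strain. There was 1 array of the embryonic stem cell (ESC) line B6J-23, 4 arrays of iPSCs (induced pluripotent stem cells) labelled OSKH and 3 arrays of iPSCs labelled OSK, the control group of the series. Neither name is explained in the labels. The letters are taken here to stand for the reprogramming factors Oct4, Sox2 and Klf4 and, for H, the oocyte linker histone H1foo. Nothing in the labels tells whether the iPSC arrays came from different clones or from 1, or which somatic cells were reprogrammed, so the spread within a group, on which every p-value rests, may be technical, and the ESC group has no spread of its own. ESC and OSKH 1 to 3 lay in row 1 of the slide, and OSKH 4 and OSK 1 to 3 in row 2.

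A level is the log2 processed signal of a probe with the array's own 75th percentile set to 0. Levels are compared between arrays for the same probe and not between probes. The share of probes well above background was 51.4% to 59.0%, and all 14 probes of the 9 genes were so on all 8 arrays. The identity of the cells was checked on 10 pluripotency markers, among them Pou5f1 (6.09 to 6.41 over the arrays) and Dppa5a (8.27 to 8.80), and 10 of 10 were well above background on every array. Other markers varied more, with Esrrb from 4.64 to 6.86 and Klf2 from 3.08 to 5.29. Nanog was higher in OSKH than in OSK by 0.54 (SE 0.21), with groups that overlapped (OSKH 2 at 1.43, OSK 1 at 1.56). The median difference of the 10 markers was 0.02. Against ESC, 10 of 10 were lower in OSKH (median -0.21) and 9 of 10 in OSK (median -0.29). Of all features, 59.9% and 57.3% were lower. Limma called 0 of 22685 features (0%) in each of the 3 comparisons at an adjusted p under 0.05, with 1470 features at an unadjusted p under 0.05 for OSKH against OSK, 990 for OSKH against ESC and 1365 for OSK against ESC.

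Cells take up iron as transferrin bound to the transferrin receptor (Tfrc), and the divalent metal transporter (Slc11a2) moves it from endosomes into the cytosol. Surplus iron is stored in ferritin, a shell of heavy (Fth1) and light (Ftl1) chains that Ncoa4 delivers to the lysosome for iron release, or leaves the cell through ferroportin (Slc40a1), the only known iron exporter of mammals. The iron regulatory proteins (Aco1 and Ireb2) bind hairpins in the mRNAs of these genes when iron is scarce, which blocks translation of ferritin and ferroportin and protects the Tfrc mRNA, while haem oxygenase 1 (Hmox1) frees iron from haem.

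Ferroportin was the member that separated the groups. Slc40a1 was at -0.18 on the ESC array, at -0.08, -0.60, -0.19 and -0.11 on OSKH 1 to 4, and at -1.60, -1.47 and -1.61 on OSK 1 to 3. The OSKH and ESC arrays thus lay together, and the 3 OSK arrays formed a tight group below them with no overlap. Before scaling, the same probe gave a processed signal of 374 on ESC, 331 to 451 on the OSKH arrays and 151 to 170 on the OSK arrays. OSKH was at -0.24 ± 0.24 (SD, n = 4) and OSK at -1.56 ± 0.08 (SD, n = 3), a difference of 1.32 (SE 0.14) or 2.49-fold. This was the 160th largest difference of 22685 features in absolute size, and 7.34% of features had iPSC groups that did not overlap, 3.15% with OSKH higher and 4.19% with OSKH lower. OSKH differed from ESC by -0.06 (SE 0.21) and OSK from ESC by -1.38 (SE 0.22), which is 2.60-fold lower. These last 2 comparisons share the ESC array and reuse the iPSC arrays through which the gene was chosen, so they were not tested either.

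**Figure D1:**
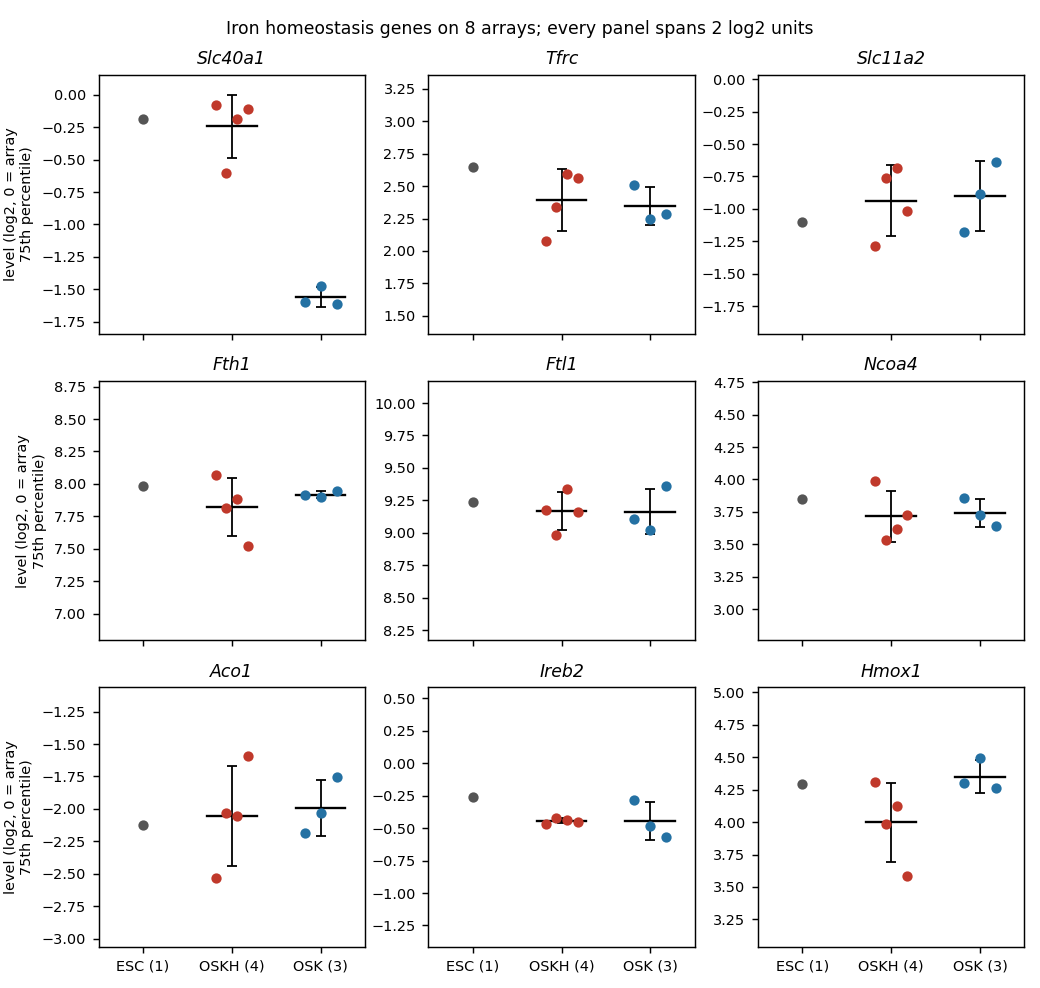
Log2 level of the 9 genes by group, with the number of arrays in parentheses. Points are arrays, horizontal lines are means and bars are SD for the groups with more than 1 array. Slc40a1 lies between -1.61 and -1.47 on the OSK arrays and between -0.60 and -0.08 on the others. For the other 8 genes the OSKH and OSK arrays overlap, and for Tfrc and Ireb2 ESC lies above both.

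Within slide row 2, OSKH 4 lay above the 3 OSK arrays by 1.45 in Slc40a1, and OSKH 1 to 3 in row 1 lay above OSK by 1.27. Within row 1, OSKH 1 to 3 differed from ESC by -0.11. All 3 OSK arrays lay in row 2, so OSKH 4 alone gives a comparison within a row, and for OSKH 1 to 3 against OSK row and group cannot be told apart. With normexp correction of the raw spot medians, the difference was 0.94. Only 1 probe on the array reports Slc40a1, so a second probe could not be compared.

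Ferroportin is abundant in macrophages, erythroid cells and the yolk sac, and marker lists of these and other cells were therefore read beside it, as log2 of the summed levels of each list. In bulk RNA, fewer cells of a type and less RNA per cell cannot be told apart. Macrophage markers ranged from 3.72 to 4.16 in OSKH and from 3.72 to 3.85 in OSK. Of the 10 macrophage genes 7 were measured. Csf1r, Itgam, Fcer1g and Cd14 were well above background on all 8 arrays and Lyz2 on 7, while Ptprc and Spi1 were so on none. Erythroid markers, with 6 of 10 measured, ranged from 0.37 to 1.25 in OSKH and from 0.20 to 0.52 in OSK, and Hbb-bt and Hba-x were not above background on any array. Endoderm markers, with 4 of 11 measured and Afp, Ttr and Apoa1 above background nowhere, ranged from -0.62 to 4.09 in OSKH and from -0.50 to -0.14 in OSK. Fibroblast markers (8 of 10 measured) ranged from 3.08 to 4.59 against 2.47 to 3.38, and trophectoderm markers (8 of 10) from 4.67 to 6.32 against 4.59 to 4.71. The sums of these 5 lists overlapped between OSKH and OSK, but a sum follows its brightest probes. Gene by gene, 8 of 8 trophectoderm markers (median difference 0.64), 7 of 7 macrophage markers (0.26), 7 of 8 fibroblast markers (0.69), 5 of 6 erythroid markers (0.30) and 3 of 4 endoderm markers (0.25) were higher in OSKH than in OSK, the direction of Slc40a1, where 46.3% of all features were higher. The ESC array had sums of 3.86 (macrophage), 0.60 (erythroid), 1.28 (endoderm), 4.48 (fibroblast) and 5.13 (trophectoderm). Each lay above the highest OSK sum, by little for the macrophage and erythroid lists. Of all features, 42.7% were higher in OSK than on ESC. Among the markers these were 0 of 8 trophectoderm, 1 of 7 macrophage, 1 of 8 fibroblast, 2 of 6 erythroid and 2 of 4 endoderm genes. Single arrays weighed heavily in some of these markers. Lyz2 was at -0.817 on OSKH 1 against -3.996 to -3.765 on OSKH 2 to 4. On OSKH 4, Cdx2 was at 0.23 against -5.99 to -4.87 on OSKH 1 to 3. Col1a2 was at 2.88 there against -0.68 to 0.31. The marker counts were not repeated with 1 array left out. The OSKH arrays lay above OSK without overlap for Eomes and Krt7, 2 of 8 trophectoderm markers. The same held for 1 of 8 fibroblast markers (Postn) and 1 of 4 endoderm markers (Foxa2). Tal1, 1 of 6 erythroid markers, lay below OSK without overlap. None (0) of 7 macrophage markers was apart, where 7.34% of all features were. Postn was well above background on 2 of 4 OSKH and 0 of 3 OSK arrays, with its nearest arrays at -6.08 and -6.13. Those of Foxa2 were at -2.86 and -2.93. The part of these markers in the Slc40a1 difference was not tested.

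The genes whose pattern was most like that of Slc40a1 were sought among 13063 named genes above background on all arrays, by Pearson's r over the 8 arrays, as a description. Those with the highest r were Fbxo3, a substrate receptor of ubiquitin ligases (r = 0.984), Ift74, of intraflagellar transport (0.969), Prrg2 (0.967), Acaa2, a mitochondrial thiolase (0.965), and Brcc3, a deubiquitinase (0.960). Those with the lowest were Bbc3, the death-promoting protein Puma (-0.971), Sptbn1, a spectrin (-0.958), Rnf169 (-0.954), Tmem254a (-0.950) and Gprasp2 (-0.946). Their differences between OSKH and OSK were smaller than that of Slc40a1, from 0.12 for Brcc3 to 0.48 for Acaa2 on one side and from -0.16 for Sptbn1 to -0.64 for Tmem254a on the other. None of the other 8 iron genes was among them. Their r with Slc40a1 ran from -0.50 for Hmox1 to 0.24 for Tfrc. The arrays share 1 slide. In each of the 10 genes the 3 OSK arrays lay on one side of the mean and ESC and OSKH 1, 3 and 4 on the other. The genes were chosen by r with Slc40a1 over these same arrays, so this shared split comes from the choice.

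**Figure D2:**
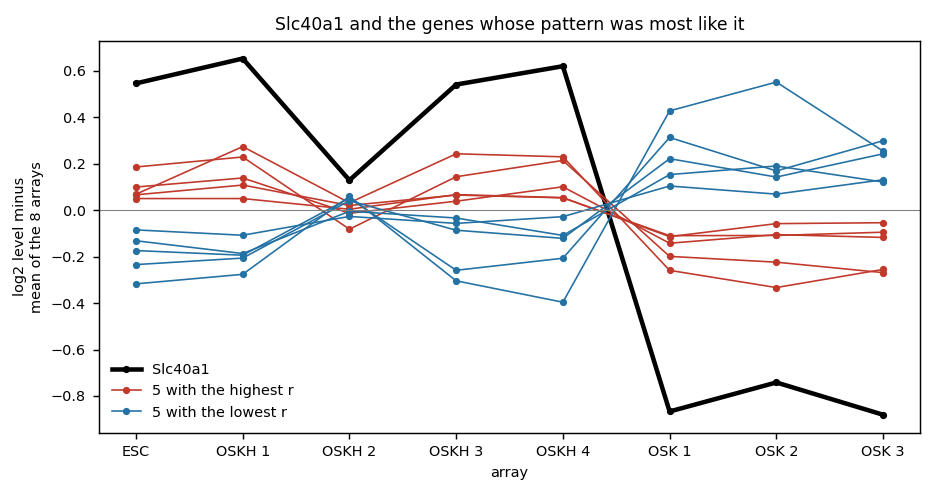
Log2 level minus the mean of the 8 arrays for Slc40a1 (black), the 5 genes with the highest r (red) and the 5 with the lowest r (blue). The OSK arrays lie opposite ESC and OSKH 1, 3 and 4 in every curve, a split that comes from choosing the genes by r. OSKH 2 lies close to 0 in most, and Slc40a1 has the widest span.

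For the uptake genes the brightest probes had iPSC groups that overlapped, while 1 of the 3 Tfrc probes did not. Tfrc was at 2.65 on ESC, at 2.07, 2.34, 2.60 and 2.56 on OSKH 1 to 4 and at 2.51, 2.24 and 2.29 on OSK 1 to 3, so that the iPSC groups overlapped and ESC was the highest array. OSKH differed from OSK by 0.05 (SE 0.15), with a 95% interval of -0.31 to 0.40. A dimmer probe was at 0.98, 0.90, 1.03 and 1.00 on OSKH 1 to 4 and at 0.88, 0.56 and 0.60 on OSK 1 to 3, so that its groups did not overlap and OSKH was higher by 0.30. The third probe differed by 0.22, with groups that overlapped, and the mean of the 3 probes by 0.19. The 2 other Tfrc probes also had their highest value on ESC, at 1.45 against 0.56 to 1.03 on the iPSC arrays and at -2.12 against -2.88 to -2.28. Of all features, 18.6% had their highest value on ESC. In limma the brightest probe differed from ESC by -0.25 (SE 0.22, adjusted p = 0.999) in OSKH and by -0.30 (SE 0.23, adjusted p = 0.880) in OSK, neither past the threshold. The mean of the 3 probes gave -0.36 for OSKH and -0.55 for OSK (limma adjusted p = 0.784), and the dimmer probe whose iPSC groups did not overlap gave -0.77 for OSK.

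Slc11a2 was at -1.10 on ESC, at -1.29, -0.76, -0.68 and -1.02 on OSKH 1 to 4 and at -1.18, -0.88 and -0.64 on OSK 1 to 3. The iPSC groups overlapped over nearly their whole range, with a difference of -0.04 (95% interval -0.48 to 0.41). The 2 probes of this gene disagreed about ESC, since the dimmer probe had its highest value there, -2.48 against -3.22 to -2.91 on the iPSC arrays. The gene is known to be spliced into forms with and without an iron-responsive hairpin, and which form each probe reads was not examined.

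**Figure D3:**
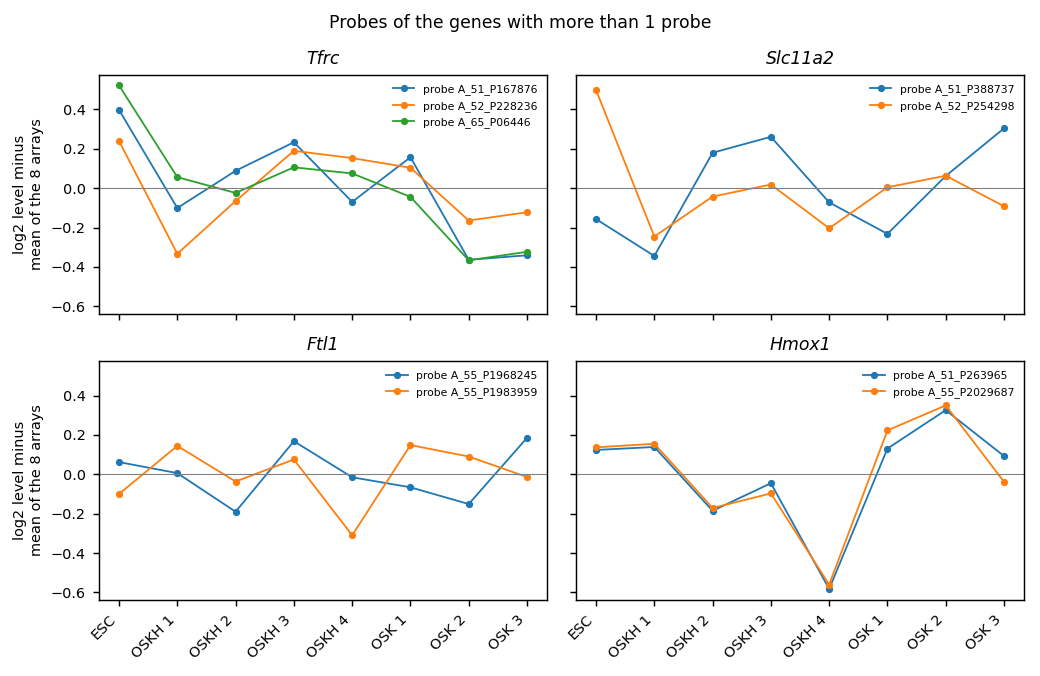
Log2 level of each probe minus its mean over the 8 arrays, for the 4 genes with more than 1 probe. The Tfrc probes peak on ESC, the Hmox1 probes dip on OSKH 4, and the Slc11a2 probes differ on ESC.

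The iPSC groups also overlapped for both ferritin chains. Ftl1 was at 9.24 on ESC, at 9.18, 8.98, 9.34 and 9.16 on OSKH 1 to 4 and at 9.11, 9.02 and 9.36 on OSK 1 to 3. Its OSKH minus OSK difference was 0.003 (SE 0.12, 95% interval -0.29 to 0.29), which leaves room for a change of 1.22-fold either way. Fth1 was at 7.99 on ESC, at 8.07, 7.81, 7.89 and 7.52 on OSKH 1 to 4 and at 7.91, 7.90 and 7.94 on OSK 1 to 3. The OSK arrays had an SD of 0.03, and OSKH 4 was the lowest of the 8 arrays. The difference of -0.10 (SE 0.13) was 0.005 without OSKH 4 and -0.40 for OSKH 4 against OSK. The second Ftl1 probe was also lowest on OSKH 4, at 6.84 against 7.05 to 7.30 elsewhere, while its brighter probe was not.

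Ncoa4, the ferritin receptor of autophagy, ranged from 3.53 to 3.99 over the 8 arrays, with both extremes among the OSKH arrays and a difference of -0.03 (SE 0.13). Aco1, a cytosolic aconitase that becomes an RNA-binding protein when it loses its iron-sulphur cluster, was at -2.54, -2.03, -2.06 and -1.59 on OSKH 1 to 4, and its OSK values of -2.19, -2.03 and -1.76 lay inside that range. OSKH 1 and OSKH 4 were the lowest and highest arrays, so the difference of -0.06 (SE 0.22) was 0.10 without OSKH 1, -0.22 without OSKH 4 and 0.40 for OSKH 4 against OSK. Ireb2, which is degraded when iron is plentiful, was at -0.47, -0.42, -0.43 and -0.45 on OSKH 1 to 4 against -0.28, -0.48 and -0.57 on OSK 1 to 3. The OSKH values were tightly grouped inside the OSK range, and the difference of 0.002 (SE 0.09) had an interval of -0.21 to 0.21. ESC, at -0.26, was the highest of the 8 arrays for Ireb2. For 7 of the 8 genes other than Slc40a1, all but Hmox1, the sign of the OSKH minus OSK difference changed when 1 array was left out.

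Against ESC, none of the 8 genes other than Slc40a1 passed the limma threshold. The differences ran from -0.29 to 0.16 in OSKH and from -0.30 to 0.20 in OSK, with smallest adjusted p of 0.999 and 0.880. The median over the 8 genes was -0.15 in OSKH and -0.07 in OSK, beside -0.05 over all features in each comparison. In OSKH 2 of the 8 were higher and 6 lower than ESC, where 40.1% of all features were higher and 59.9% lower. In OSK 3 were higher and 5 lower, where 42.7% and 57.3% of all features were. The 95% intervals of these genes against the single ESC array lay between -0.90 and 0.94.

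**Figure D4:**
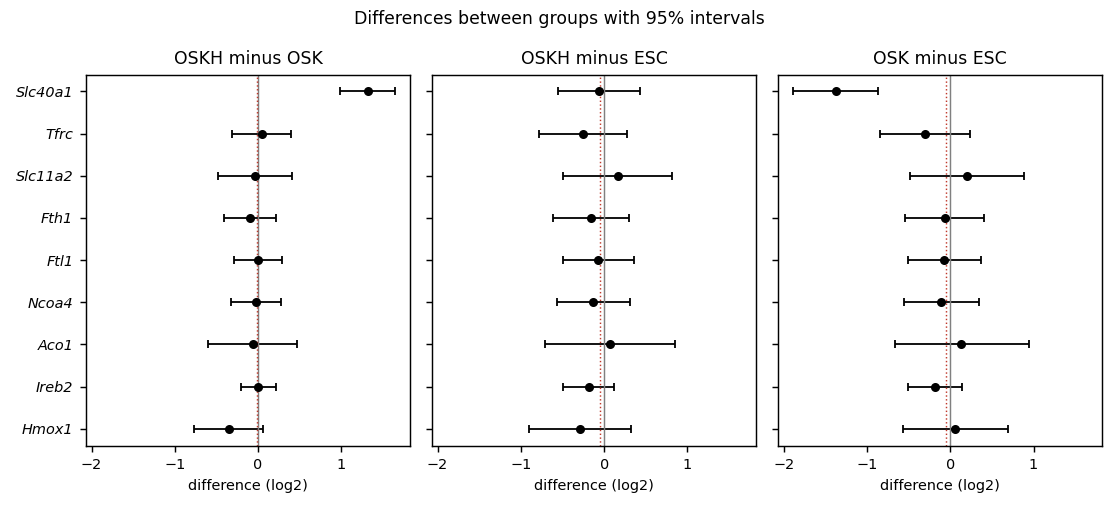
Difference in log2 level for each gene in the 3 comparisons, as points with 95% intervals from the fit over all features. The grey line is 0 and the dotted red line the median of all features. The interval of Slc40a1 lies away from 0 where OSK is compared, and the gene was chosen for that difference, and the other 25 intervals, that of Slc40a1 for OSKH against ESC included, cross 0.

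Hmox1 showed the next largest difference among the 9 genes. It was at 4.29 on ESC, at 4.31, 3.98, 4.12 and 3.59 on OSKH 1 to 4 and at 4.30, 4.49 and 4.26 on OSK 1 to 3. The groups overlapped through OSKH 1, and OSKH 4 was the lowest array. OSKH was at 4.00 ± 0.31 (SD, n = 4) and OSK at 4.35 ± 0.13 (SD, n = 3), a difference of -0.35 (SE 0.18, 95% interval -0.77 to 0.06). It was -0.21 without OSKH 4 and -0.77 for OSKH 4 against OSK within slide row 2. The second Hmox1 probe differed by -0.35 too, with OSKH 4 at 0.22 against 0.61 to 1.13 on the other arrays.

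Hmox1 and the ferritin genes are targets of NRF2 (Nfe2l2), the transcription factor of the oxidative stress response, and are repressed by the haem sensor Bach1. Of a list of 14 NRF2 genes 13 were measured. Of these, 8 were lower in OSKH than in OSK, where 53.7% of all features were lower. The median was -0.13 beside -0.01 over all features. Nqo1, a quinone reductase, was at 1.85, 1.34, 1.34 and 0.48 on OSKH 1 to 4 and at 2.30, 1.92 and 1.87 on OSK 1 to 3, with ESC at 1.41. Its groups did not overlap, but the nearest arrays were at 1.845 in OSKH and 1.867 in OSK. The difference of -0.78 (SE 0.31) was -0.52 without OSKH 4. At the other end was Keap1, which marks NRF2 for degradation, with a difference of 0.28 (SE 0.10). Srxn1, the sulfiredoxin, named here after its values were seen, also had groups that did not overlap. It was at 3.01, 4.03, 4.01 and 3.34 on OSKH 1 to 4 against 4.05, 4.34 and 4.23 on OSK 1 to 3. Its nearest arrays were at 4.027 and 4.054. The groups were apart in these 2 of 13 genes, where 4.19% of all features were apart with OSKH lower.

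OSKH 4 was the lowest of the 8 arrays for 8 of the 13 NRF2 genes, namely Nfe2l2, Bach1, Nqo1, Gclm, Gclc, Txnrd1, Gsr and Mafk, and for Hmox1 and Fth1, while it was the lowest for 19.4% of all features. In the other lists described below, it was the lowest for 9 of 24 mitochondrial, 4 of 14 haem and 3 of 10 uptake genes. It was so for 1 of 6 export and 0 of 4 storage genes. With the NRF2 list included, this made 25 of 71. These counts were made after the values were seen and were not tested. For Gclm, a subunit of the enzyme that starts glutathione synthesis, OSKH 4 lay at 1.32 against 1.52 to 1.95 on the other arrays. For Txnrd1, thioredoxin reductase, it lay at 5.92 against 6.04 to 6.44. The same array had the highest sums of the endoderm (4.09), fibroblast (4.59) and trophectoderm (6.32) marker lists, against 1.28, 4.48 and 5.13 on ESC, and their part in the low NRF2 genes was not tested.

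**Figure D5:**
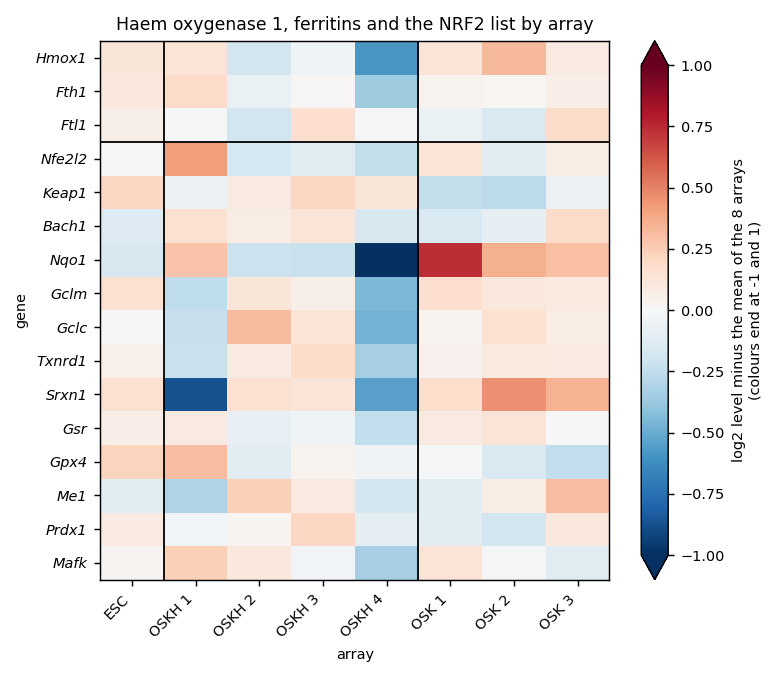
Log2 level of each gene minus its mean over the 8 arrays, for Hmox1, the ferritin genes and the 13 measured genes of the NRF2 list. Vertical lines separate ESC, OSKH and OSK. Blue cells gather in the OSKH 4 column, with Nqo1 the darkest.

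Upstream sequences of the 9 iron genes and the 13 measured NRF2 genes were searched, whether or not a gene was low on OSKH 4. The search looked for the core of the antioxidant response element, TGACNNNGC, on both strands. It covered the 250 bases before each start in the RefSeq table of GRCm38.p6. The motif was present before 10.2% of the 32851 starts in that table. It was present before 1 of the 10 starts of the 6 iron genes with an entry, and before 5 of the 17 starts of the 11 NRF2 genes with an entry. Those 5 starts belong to Nfe2l2, Gclm, Txnrd1, Prdx1 and Mafk, of which Prdx1 was not lowest on OSKH 4. Nqo1 and Bach1, both lowest there, had no match, and neither had Srxn1. The 150 bases before a start are shown for Gclm, where its 1 start holds the motif 134 bases upstream, and for Txnrd1, where 1 of 3 starts holds it, 92 bases upstream. Ncoa4 is shown as the iron gene with a match, at 1 of its 3 starts and 44 bases upstream, although it was not low on OSKH 4. Fth1, which was low there, is shown as a gene without these letters before either of its starts. All are on the plus strand, and capitals mark the motif, which reads as GCNNNGTCA where it lies on the opposite strand. The stretches are chr14:32165639-32165788 for Ncoa4, chr3:122245407-122245556 for Gclm, chr10:82859056-82859205 for Txnrd1 and chr19:9982496-9982645 for Fth1. A match is a description of the letters and not evidence of a bound site.
Ncoa4: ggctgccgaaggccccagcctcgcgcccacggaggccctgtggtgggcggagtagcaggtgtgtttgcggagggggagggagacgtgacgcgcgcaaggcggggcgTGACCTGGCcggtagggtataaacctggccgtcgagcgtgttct
Gclm: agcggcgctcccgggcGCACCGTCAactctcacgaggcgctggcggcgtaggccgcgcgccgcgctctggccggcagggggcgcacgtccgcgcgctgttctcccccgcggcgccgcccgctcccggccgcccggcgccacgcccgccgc
Txnrd1: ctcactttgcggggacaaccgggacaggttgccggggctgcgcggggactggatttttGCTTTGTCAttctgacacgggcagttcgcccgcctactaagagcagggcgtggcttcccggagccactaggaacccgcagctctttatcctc
Fth1: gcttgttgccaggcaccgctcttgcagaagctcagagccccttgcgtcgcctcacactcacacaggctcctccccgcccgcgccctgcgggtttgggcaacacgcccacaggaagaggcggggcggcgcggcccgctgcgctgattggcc

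Of the wider iron and haem genes, 71 of 81 listed genes, the NRF2 list included, were measured and 0 passed limma in any comparison. The groups did not overlap in 7 of the 71, beside the 7.34% of all features. OSKH was lower in 6 of the 7 and higher in 1, beside 4.19% and 3.15% of all features. The 6 were 3 mitochondrial genes, 2 of the NRF2 list and 1 haem gene. In all, 46 of 71 were lower in OSKH than in OSK, where 53.7% of all features were lower and 46.3% higher, and the median was -0.04.

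Among 10 measured genes of iron uptake and reduction, 8 were lower in OSKH, with a median of -0.13. Trf, transferrin, was at 1.90, 2.40, 2.15 and 1.39 on OSKH 1 to 4 and at 2.39, 2.73 and 2.43 on OSK 1 to 3, a difference of -0.56 (SE 0.24) that was -0.37 without OSKH 4. Slc39a8, a metal transporter of the ZIP family, ran the other way by 2.09 (SE 1.27), but this rests on OSKH 4 at 1.52, since OSKH 1 to 3 lay at -3.90, -2.71 and -2.21 and only 1 of 3 OSK arrays measured it. Without OSKH 4 its difference was 0.98.

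In the list of iron export and the hepcidin axis, Heph is named because its OSKH minus OSK difference was the highest. Heph, hephaestin, the ferroxidase that oxidises iron as it leaves through ferroportin, was at -0.68 on ESC, at -1.10, -0.74, -0.39 and 0.12 on OSKH 1 to 4 and at -2.04, -2.10 and -1.03 on OSK 1 to 3. OSK 3 just overlapped OSKH 1, and the difference was 1.20 (SE 0.37), with 0.98 without OSKH 4 and 1.54 without OSK 3. OSK lay below ESC by -1.04, which did not pass limma (adjusted p = 0.840). Of this list of 11 genes of iron export and the hepcidin axis 6 were measured. Of these, 4 were higher and 2 lower in OSKH than in OSK, with a median of 0.04. The lowest difference was that of Hjv (-0.47, SE 0.76), a co-receptor of hepcidin induction that 2 of 4 OSKH and 1 of 3 OSK arrays measured, and it ran from -0.89 to 0.04 without 1 array, with 0.04 without OSKH 4. Hamp, which encodes hepcidin itself, the hormone that removes ferroportin from the cell surface, was not well above background on enough arrays to be measured, and neither was the ferroxidase Cp.

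The differences were small in the storage, mitochondrial and haem lists. Of 4 measured storage and chaperone genes 4 were lower in OSKH, from -0.09 for Fbxl5, the iron-sensing ligase of Ireb2, to -0.02 for the iron chaperone Pcbp2. This count was 2 of 4 without OSKH 2, without OSK 3 and with normexp, and without 1 array Fbxl5 ran from -0.18 to -0.04 and Pcbp2 from -0.07 to 0.02. Of 24 genes of mitochondrial iron and iron-sulphur assembly, 17 were lower, with a median of -0.07 and extremes of -0.16 for the iron importer Slc25a28 and 0.10 for the co-chaperone Hscb. Of 14 genes of haem synthesis and breakdown, 7 were lower, from -0.21 for Fech, the enzyme that inserts iron into haem, to 0.18 for the transporter Abcb10. The Fech difference was -0.07 without OSKH 4, that of Hscb was -0.06 without OSKH 1, and that of Abcb10 was 0.12 without OSKH 1 or OSK 3. For OSKH 4 alone against OSK, the difference was -1.55 for Nqo1, -1.13 for Trf, 1.85 for Heph and -0.61 for Fech.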

How the data were processed

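Total RNA of 8 samples was labelled with Cy3 and hybridised to 1-colour Agilent arrays on 1 slide, per the labels. The submitters' processing notes name Agilent Feature Extraction 11.5.1.1. The main intensity column deposited for each array had local background and a spatial trend removed, per the file headers, without scaling between arrays. The log2 values of the deposited series table matched these signals up to 1 offset for each array, within 0.01 for 100% of probes, with column medians from -3.71 to -3.60. The flags (well above background, saturated, outlier) are other columns of the same deposited files.

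Spots flagged as outliers were left out, the rest averaged per probe (55667 probes), and the array's 75th percentile (424 to 501 in signal) subtracted from the log2 value. There were 0 saturated spots. RefSeq accessions were matched without versions to a table of GRCm38.p6, which named 27650 probes. Probes well above background on at least 3 arrays were kept, and each gene was read by its brightest probe, giving 22685 features. The array's annotation is of mm9, and no array coordinates are printed. The fit used limma 3.58.1 (R 4.3.3), with Benjamini-Hochberg adjustment over all features. The single ESC array was assumed to vary like the others. The number of arrays limits the precision. On data simulated for OSKH against OSK with 22685 features, 200 of them changed, the test recovered 56% of the 2-fold and 86% of the 4-fold changes. It called 150 features there, 8 of them falsely, whereas 0 were called on the real arrays. The simulated shares therefore do not tell what share of real changes was missed.

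The genes and lists were chosen with earlier results of these data known. All 9 genes are reported. From each wider list, none of whose genes passed against ESC, the highest and lowest OSKH minus OSK difference is named, and for likeness to Slc40a1 the 5 highest and 5 lowest r. Same-numbered arrays of OSKH and OSK deviated together (r = 0.489, 0.206 and 0.365 for numbers 1 to 3). They also shared a slide column, so the number was used as a block in an alternative. Other alternatives were slide row, normexp, quantile and median scaling, the value table, other filters, the mean of probes, and each iPSC array left out. Normexp used spot medians. Promoter sequences are those of RefSeq.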

Additional observations from a re-analysis of the deposited data

Results flagged for a closer look

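Among 31 genes examined in the 4 OSKH arrays, 1 had an array far from the others: Fbxl5, the ligase that degrades Ireb2, was at 1.83 on OSKH 1 against 1.42 to 1.48 on OSKH 2 to 4. At the 95% critical value used, chance alone gives such cases in about 5% of groups.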

How the results depend on the processing

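The OSKH minus OSK difference of Slc40a1 ran from 0.94 (normexp) to 1.45 (slide row as a block, and within row 2), and from 1.26 to 1.435 with each iPSC array left out in turn. With array number as a replicate block, fitted on OSKH 1 to 3 and OSK 1 to 3 only, it was 1.27 and no feature was called (0). Leaving out OSKH 4 without a block also gave 1.27. The block fit held no comparison with ESC. No feature was called in the 3 comparisons when 1 array was left out (0 in each). Blocking on slide row sets OSKH 4 alone against OSK, since row 2 holds no other OSKH array, and 47 features were called. The comparison of OSK with ESC then runs through the OSKH arrays of both rows, and 38 were called. Within row 2 alone, 30 were called for OSKH 4 against OSK. These calls rest on 1 OSKH array and are not calls for the group. Without the filter on dim probes, 11 were called for OSKH against ESC and 9 for OSK against ESC, and the cause was not tested. Of 248 values of the 8 other genes against ESC, 13 changed sign, and none passed the threshold before or after. Part of the 248 could not change, since leaving out an OSKH array cannot alter OSK minus ESC. Nor can leaving out an OSK array alter OSKH minus ESC. Row as a block, row 1 alone and leaving out OSKH 4 also give the same OSKH minus ESC difference. For Aco1, OSKH minus ESC changed sign with row as a block and within row 1 (-0.084 each) and with normexp (-0.041). Without 1 array that difference ran from -0.084 to 0.23, and OSK minus ESC was -0.49 with row as a block. For Fth1, OSK minus ESC was 0.33 with row as a block and 0.075 with quantile scaling. For Ftl1, quantile scaling gave 0.025 for OSKH and 0.057 for OSK minus ESC, and the mean of probes 0.051 for OSK. For Slc11a2 the mean of probes gave -0.23 for OSKH and -0.15 for OSK minus ESC. For Hmox1, OSK minus ESC ran from -0.012 to 0.104 without 1 array. The 46 of 71 wider genes lower in OSKH became 42 without OSKH 4. Alternatives for the wider genes were added after the data were seen.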
